A study of Mus musculus with 2 samples.

Results

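The core autophagy machinery was described here through 45 mouse genes, which encode the kinases, lipid enzymes, conjugation enzymes, ubiquitin-like proteins and receptors that build an autophagosome, with the regulators Tfeb, Tfe3, Vcp and Epg5. They were chosen by symbol from a list of names, and all 45 were found among the 21829 genes of the expression files, each in a single row. The values come from poly(A) RNA sequencing of C2C12 cells, an immortalised mouse myoblast line, with 1 library from wild-type (WT) cells and 1 from a line labelled GNE KO. Both lines were grown under the same conditions, in DMEM with fetal bovine serum and gentamicin. The KO line was made with Cas9 by an insertion in the Gne gene, which encodes the enzyme that opens sialic acid synthesis, and it was expanded from single edited cells, so that a trait of the clone and an effect of the edit cannot be told apart. Labels call both libraries number 1, nothing ties a library to more than 1 culture, and with 1 library of each line no difference has a replicate check and no p-value is given. The study asked whether autophagy was altered when Gne was lost, and the comparison here addresses only the amount of RNA of the autophagy genes in cells that were fed, not starved.

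Macroautophagy encloses cytoplasm in a double membrane that later fuses with a lysosome. The ULK kinase complex starts it, a class III PI 3-kinase complex marks the growing membrane with PI3P, Atg9 and Atg2 supply lipid, and a pair of ubiquitin-like conjugation systems attaches Atg8 proteins (the LC3 and GABARAP subfamilies) to phosphatidylethanolamine. Receptors such as p62 bind both cargo and Atg8 proteins. In skeletal muscle the pathway clears damaged organelles and proteins and supplies amino acids during fasting, and much of its control acts on proteins by phosphorylation, which RNA levels do not measure.

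The Atg8 family held the member whose RNA differed most between the libraries, so the ends of the coding sequences of 4 of its genes are shown first. Atg4 proteases cut each precursor after a glycine near its end, and that glycine is then joined to the lipid. The lines below give the last coding bases of these genes, 5′ to 3′ on the coding strand to the stop codon, from GENCODE vM39 transcripts on GRCm39, with the codon of that glycine in capitals.
Map1lc3a: gcctcccaagaaaccttcGGCttctga
Gabarap: agtgatgaaagcgtctatGGTctgtga
Gabarapl1: agtgatgaaagtgtctatGGAaaatga
Gabarapl2: agcggagagaacacttttGGCttctga
All 4 have 1 codon after the glycine, which is codon 120 of 121 in Map1lc3a and codon 116 of 117 in the 3 GABARAP genes. The end of Map1lc3b, the other gene of the family, is not shown, so this does not describe the whole family. Map1lc3a lies on chromosome 2 (chr2:155118217-155119998, plus strand) and Gabarap on chromosome 11 (chr11:69881888-69886109, plus strand), both in GRCm39.

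Expression is given in FPKM, fragments per kilobase of transcript scaled to sequencing depth, so levels of different genes can be set side by side per length. Fold changes are log2((KO + 1)/(WT + 1)) of FPKM, where the added 1 shrinks differences of weakly expressed genes, and are given where the mean of the 2 libraries reached 1 FPKM. Of 21829 genes 10542 passed that filter, with a median log2 fold change of 0.01 and quartiles of -0.21 and 0.23. From the steps between low values, the libraries were estimated to hold about 27000000 (WT) and 23000000 (KO) fragments, and the 95% intervals below cover the counting error at that depth alone. The targeted gene Gne was listed at 6.67 FPKM in WT and 7.34 FPKM in the library labelled KO, so its RNA level does not tell the lines apart, and "KO" below means the library labelled so. Among 8 myoblast markers, Myod1 was listed at 60.0 FPKM in WT and 0 in KO, Des at 97.6 and 3.84, Myf5 at 9.14 and 20.3, and Pax7 at 0 in both. The summed myoblast markers went from 213 to 38.8 FPKM and the 7 fibroblast and mesenchymal markers from 274 to 548 FPKM, a difference carried mostly by Col1a1, which went from 9.66 to 273 FPKM. Ly6a, with the highest WT level of that list, went from 198 to 146 FPKM, and Thy1 was at 0 in both. Adgre1 and Ptprc of macrophages and Cdh5 and Kdr of endothelium were at 0 in both libraries, and Cd68, the macrophage marker that passed the filter, was at 2.85 FPKM in WT and 1.06 FPKM in KO. In bulk RNA, fewer cells of a kind and less RNA per cell cannot be told apart, and the part of these marker differences in the values of the autophagy genes was not tested.

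The autophagy genes as a list were at nearly the same level in both libraries. Of the 45 genes 44 passed the filter, 22 of them higher and 22 lower in KO, with a median log2 fold change of 0.00 and quartiles of -0.19 and 0.15. The counting interval of log2(KO/WT) held 0 for 11 of the 44, lay above 0 for 17 and below 0 for 16. The same count was not made over all genes, and the intervals leave out the spread between cultures. These 3 numbers therefore do not set the list apart from other genes. More than 2-fold, 1 of the 44 was higher in KO (2.27%) and 0 were lower, where 2.84% and 3.43% of all genes were. More than 1.5-fold, 1 was higher (2.27%) and 3 were lower (6.82%), where 7.68% and 7.5% of all genes were. At these settings no count was above its share among all genes, which did not hold under every alternative described below. The 1 gene past 2-fold was Map1lc3a, and the 3 lower past 1.5-fold were Optn, Wdr45 and Atg101. Of the 44 genes 28, or 63.6%, lay inside the interquartile range of all genes, which holds 50% by its definition.

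**Figure D1:**
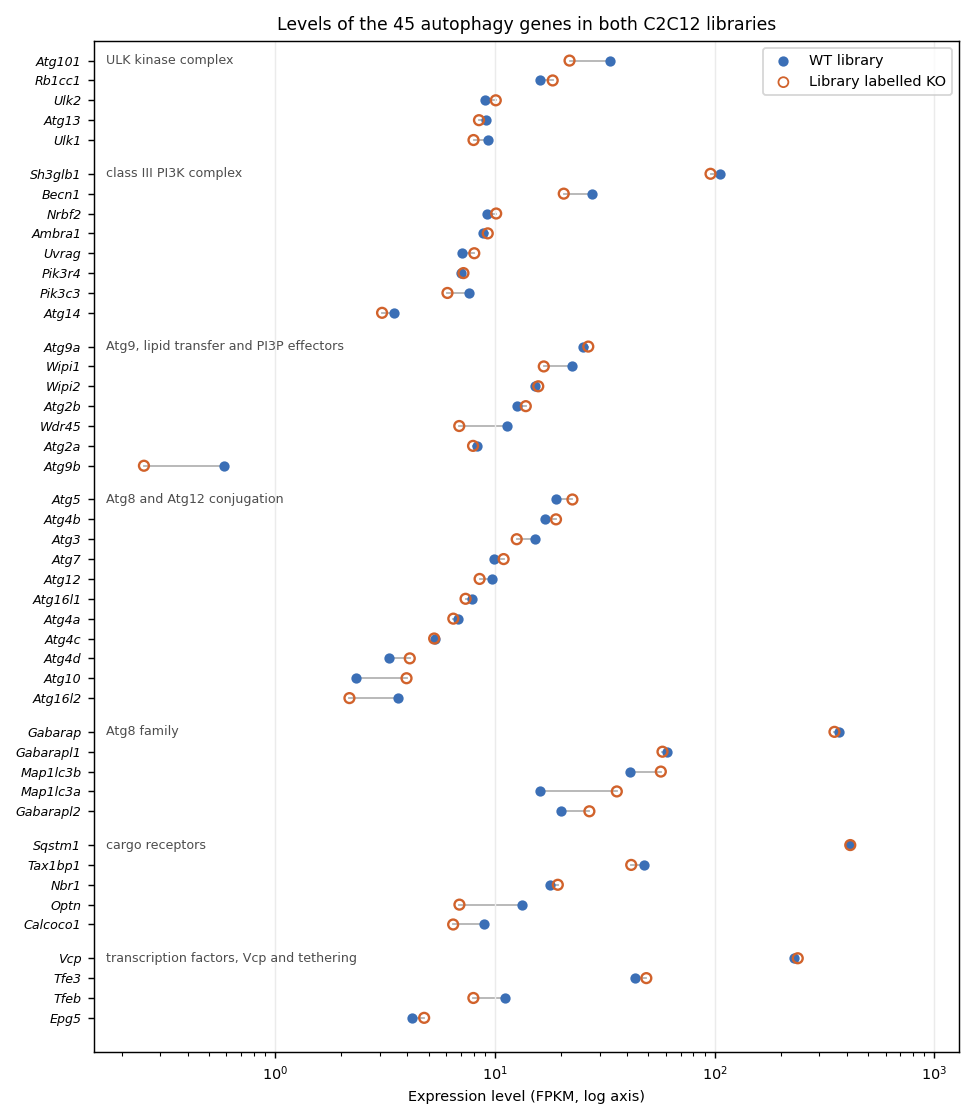
Expression level (FPKM, log axis) of each of the 45 autophagy genes in the WT library (filled points) and the library labelled KO (open circles), grouped by step. Sqstm1, Gabarap and Vcp sit between 231 and 414 FPKM in both libraries, Atg9b lies under 1 FPKM in both, and Map1lc3a has the widest gap to the right, from 16.1 to 35.9 FPKM.

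Levels spanned a wide range. Sqstm1, which encodes the receptor p62, was the highest member, at 411 FPKM in WT and 414 FPKM in KO, a log2 fold change of 0.01, and ranked 199 of the 10542 genes by mean level. Gabarap ranked 230 and Vcp 339. These 3 genes were above 100 FPKM in both libraries, while 17 of the 44 genes were under 10 FPKM in both, and the median mean level of the 44 was 10.3 FPKM against 15.5 FPKM for all genes past the filter. The lowest member was Atg9b, the less widely expressed paralog of the lipid scramblase gene Atg9a, at 0.585 FPKM in WT and 0.253 FPKM in KO, under the filter.

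The ULK complex receives the signals of mTORC1 and AMPK. Its kinase Ulk1 was at 9.29 FPKM in WT and 8.00 FPKM in KO, a log2 fold change of -0.19. The related kinase Ulk2 was at 9.04 and 10.1 FPKM, a log2 fold change of 0.14. The pair therefore summed to 18.3 FPKM in WT and 18.1 FPKM in KO, with Ulk1 making up 50.7% of the sum in WT and 44.2% in KO. The scaffold genes Atg13 and Rb1cc1 each differed little between the libraries, in opposite directions. Atg13, which links the kinase to the complex, was at 9.14 and 8.47 FPKM. Rb1cc1, which encodes the large scaffold FIP200, was at 16.0 and 18.3 FPKM. Atg101 encodes the subunit that stabilises Atg13 and stood apart from the rest of the complex. It was at 33.5 FPKM in WT and 21.9 FPKM in KO, a log2 fold change of -0.59 with a KO to WT ratio of 0.654. This is just past the 1.5-fold limit, and it no longer was once the median of the genes around it on chromosome 15 (chr15:101181252-101188834 in GRCm39, plus strand) was subtracted. The 94 genes within 5 Mb that passed the filter had a median log2 fold change of -0.40, which left -0.19 for Atg101.

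The class III PI 3-kinase complex makes PI3P on the forming membrane. None of its 8 genes passed 1.5-fold, and their median log2 fold change was -0.06. Becn1 encodes Beclin 1, the subunit that many regulators bind, and its level was 27.6 FPKM in WT and 20.6 FPKM in KO, a log2 fold change of -0.40 (95% counting interval of log2(KO/WT), -0.54 to -0.30). The lipid kinase gene Pik3c3 was at 7.60 and 6.09 FPKM and the gene of its membrane anchor, Pik3r4, at 7.04 and 7.20 FPKM. Beclin 1 sits in separate complexes with Atg14, for autophagosome formation, or Uvrag, for endosomal traffic. Atg14 was at 3.49 FPKM in WT and 3.07 FPKM in KO, and Uvrag at 7.07 and 8.06 FPKM, so that the ratio of Uvrag to Atg14 RNA was 2.02 in WT and 2.63 in KO. The regulators Nrbf2 (9.25 and 10.1 FPKM) and Ambra1 (8.82 and 9.28 FPKM) had slightly higher values in KO. Their counting intervals of log2(KO/WT) held 0 (-0.03 to 0.29 and -0.04 to 0.19). Relative to the medians of the genes around them, Nrbf2 was at -0.17 and Ambra1 at 0.22. Sh3glb1, whose product Bif-1 bends membranes and binds Uvrag, was the most abundant gene of this group, at 106 FPKM in WT and 95.8 FPKM in KO. Its log2 fold change was -0.14, and the genes around it had a median of 0.24, which left -0.38 for Sh3glb1.

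Atg9 vesicles and Atg2 bring lipid to the membrane, and the Wipi proteins bind PI3P there. Atg9a was at 25.2 FPKM in WT and 26.6 FPKM in KO, and the lipid transfer genes Atg2a (8.33 and 7.96 FPKM) and Atg2b (12.6 and 13.8 FPKM) differed as little. The 3 PI3P effectors did not move alike. Wipi2, whose product recruits Atg16l1, was at 15.2 and 15.8 FPKM. Wipi1 was at 22.4 FPKM in WT and 16.7 FPKM in KO, a log2 fold change of -0.40. Wdr45, which encodes WIPI4, a partner of Atg2, was at 11.4 FPKM in WT and 6.89 FPKM in KO, a log2 fold change of -0.65 with a KO to WT ratio of 0.605. The estimate of about 489 fragments in WT and 252 in KO gives a 95% counting interval of -0.94 to -0.51 for log2(KO/WT). Wdr45 lies on the X chromosome (chrX:7580570-7594519 in GRCm39, plus strand), where the genes within 5 Mb had a median log2 fold change of 0.02, and Tfe3, at chrX:7628761-7641444, had 0.16. Of the 75-base stretches of the Wdr45 transcript 43.4% also occur in the overlapping gene Gm45208, so its value is uncertain where the counting could split such reads.

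Conjugation was the step with the most members. Of its 11 genes 5 were higher and 6 lower in KO, the median log2 fold change was -0.01, and none passed 1.5-fold with the added 1. Atg7, the E1-like enzyme of both systems, was at 9.92 FPKM in WT and 11.0 FPKM in KO. Atg3, the E2-like enzyme that transfers Atg8 proteins to lipid, was at 15.3 and 12.6 FPKM, and Atg10, the E2-like enzyme for Atg12, at 2.32 and 3.96 FPKM. The difference of Atg10, 0.58 on the log2 scale, fell just inside the 1.5-fold limit, and the gene was estimated to have only 126 and 183 fragments. Without the added 1 its KO to WT ratio was 1.71. The product of the Atg12 system is an Atg12-Atg5 conjugate that joins Atg16l1 and directs lipidation. Atg5 was at 18.9 FPKM in WT and 22.5 FPKM in KO, Atg12 at 9.71 and 8.52 FPKM, and Atg16l1 at 7.88 and 7.36 FPKM. The paralog Atg16l2, at 3.61 and 2.18 FPKM, had a log2 fold change of -0.54, also just inside the limit, with a KO to WT ratio of 0.604. Of the Atg4 proteases, which cut the Atg8 precursors and later free them from lipid, Atg4b had the highest level, 52.3% of the summed Atg4 FPKM in WT and 54.5% in KO. Atg4b was at 16.9 and 19.0 FPKM, Atg4a at 6.79 and 6.47, Atg4c at 5.33 and 5.29, and Atg4d at 3.29 and 4.10. Atg4a shares 51.4% of its 75-base stretches with Atg4a-ps, a related entry listed at 2.28 and 2.36 FPKM, so the value of Atg4a is uncertain in the same way.

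**Figure D2:**
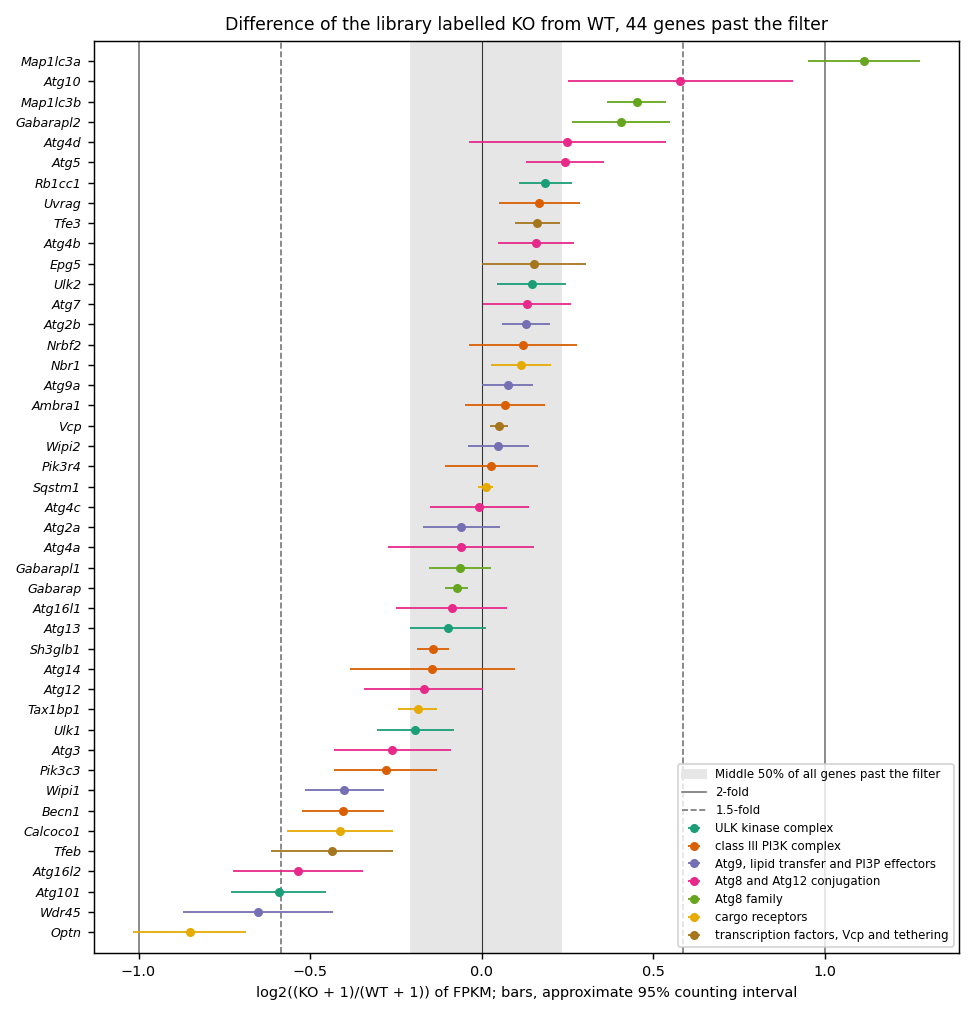
Log2 fold change of KO against WT, log2((KO + 1)/(WT + 1)) of FPKM, for the 44 genes past the filter, in order, with colours for the steps. Bars are half-widths of the approximate 95% counting interval of log2(KO/WT), the grey band is the interquartile range of all 10542 genes (-0.21 to 0.23), and the vertical lines mark 1.5-fold and 2-fold; Map1lc3a stands past 2-fold at 1.11 and Optn is lowest at -0.85.

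The Atg8 family held the single member past 2-fold. Map1lc3a, which encodes LC3A, was at 16.1 FPKM in WT and 35.9 FPKM in KO, a KO to WT ratio of 2.24 and a log2 fold change of 1.11. The estimated 458 and 870 fragments give a 95% counting interval of 1.00 to 1.32 for log2(KO/WT). No other gene shares a 75-base stretch with its transcript, no exon of another gene overlaps it on the other strand, and the genes within 5 Mb had a median of -0.09. Map1lc3b encodes LC3B, the form usually followed as a marker of autophagosomes, and was at 41.4 FPKM in WT and 56.9 FPKM in KO, a log2 fold change of 0.45 that did not pass 1.5-fold. Gabarapl2 was at 20.1 and 26.9 FPKM, a log2 fold change of 0.41. Both genes lie on chromosome 8 among genes that were also higher in KO, with medians of 0.33 around Map1lc3b and 0.27 around Gabarapl2, and relative to these they differed by 0.12 and 0.13. The remaining family members had slightly lower values in KO. Gabarap was at 369 FPKM in WT and 351 FPKM in KO, and Gabarapl1 at 60.6 and 57.9 FPKM. The counting interval of Gabarapl1 held 0 (-0.15 to 0.02).

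Because Gabarap was so abundant, the family as a whole hardly differed. Its 5 genes summed to 507 FPKM in WT and 529 FPKM in KO, of which Gabarap made up 72.8% and 66.4%. The LC3 pair went from 57.4 to 92.8 FPKM, and the ratio of Map1lc3b to Map1lc3a RNA from 2.58 to 1.59. The median log2 fold change of the 5 genes was 0.41, the highest of the 7 steps as deposited. After the medians of neighbouring genes were subtracted it was 0.12 and no longer the highest, since the group of Tfeb, Tfe3, Vcp and Epg5 also had 0.12, by a small margin the higher value.

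**Figure D3:**
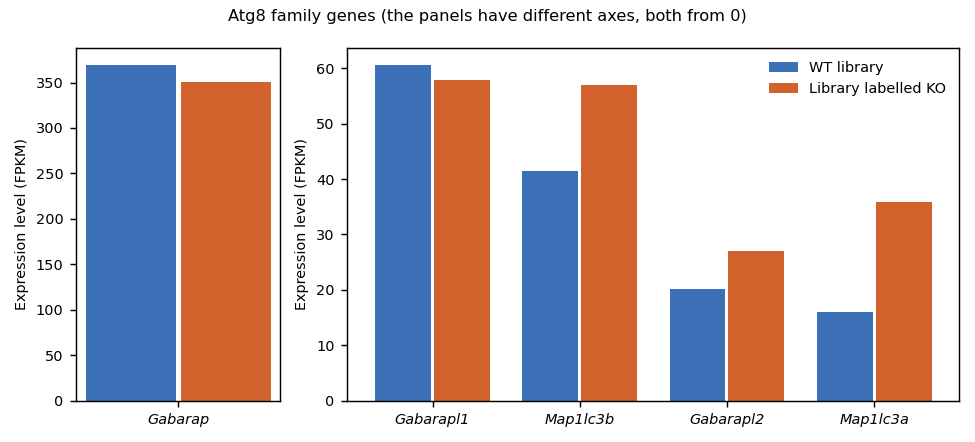
Expression level (FPKM, linear axes from 0) of the 5 Atg8 family genes in the WT library and the library labelled KO, 1 value per bar with no replicates, Gabarap on an axis of its own. Gabarap exceeds the other genes several times over in both libraries, and Map1lc3a shows the largest relative difference, 16.1 against 35.9 FPKM.

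Among the receptors, Optn was the member with the largest fall. Optineurin binds ubiquitin on damaged mitochondria, bacteria and protein aggregates and brings them to LC3. Its RNA was at 13.2 FPKM in WT and 6.90 FPKM in KO, a KO to WT ratio of 0.521 and a log2 fold change of -0.85 (95% counting interval of log2(KO/WT), -1.11 to -0.78). The gene lies on chromosome 2 (chr2:5022703-5068945 in GRCm39, minus strand), where the genes within 5 Mb had a median of -0.10. An exon of the gene 4930551O13Rik overlaps it on the other strand, as happens for 27 of the 45 members, and whether the counting used strand is not given in the sources used here. Calcoco1, a receptor related to NDP52 that serves the endoplasmic reticulum and Golgi, was at 8.93 and 6.46 FPKM (log2 fold change, -0.41). Around it on chromosome 15, 88 genes had the same median, -0.41. Tax1bp1, another relative of NDP52, was at 47.6 FPKM in WT and 41.7 FPKM in KO, and Nbr1, which acts beside p62 in aggregates, at 17.8 and 19.3 FPKM. Sqstm1 alone made up 82.4% of the summed receptor RNA in WT and 84.8% in KO, so that the ratio of Sqstm1 to Optn was 31.0 in WT and 60.1 in KO while the sum was 499 and 489 FPKM.

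**Figure D4:**
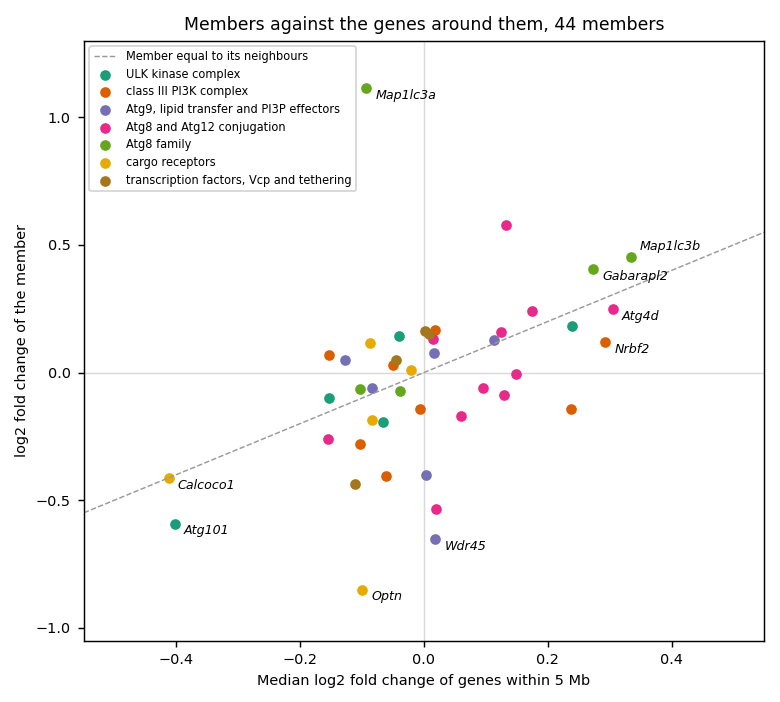
Log2 fold change of each of the 44 genes past the filter (vertical axis) against the median log2 fold change of the genes within 5 Mb on the same chromosome (horizontal axis), with the dashed line where both are equal and names for genes past 1.5-fold or with a neighbour median beyond 0.25. Calcoco1 lies on the line, Atg101, Map1lc3b and Gabarapl2 near it, and Map1lc3a, Optn and Wdr45 far from it with neighbour medians of -0.09, -0.10 and 0.02.

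Some members lay among genes that differed together. The medians of the genes within 5 Mb ran from -0.41 to 0.33 over the 44 members, each from at least 12 genes, and 6 members had a median beyond 0.25 in either direction. These were Atg101 and Calcoco1 on chromosome 15 on the lower side, and Map1lc3b and Gabarapl2 on chromosome 8, Nrbf2 on chromosome 10 and Atg4d on chromosome 9 on the higher side. The share of all genes with such a neighbour median was not counted, so 6 of 44 cannot be called many or few. With the neighbour median subtracted, Map1lc3a was at 1.21, Optn at -0.75 and Wdr45 at -0.67, all still past 1.5-fold.

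Tfeb and Tfe3 encode related transcription factors that enter the nucleus when mTORC1 is inactive and switch on autophagy and lysosomal genes. Tfeb was at 11.2 FPKM in WT and 7.98 FPKM in KO, a log2 fold change of -0.44. Tfe3 had the higher level of the pair, 43.6 and 48.9 FPKM, so that the ratio of Tfe3 to Tfeb RNA was 3.91 in WT and 6.12 in KO. Vcp, the segregase that extracts ubiquitinated proteins and is needed for autophagosomes to mature, was at 231 and 239 FPKM, although 47.4% of its 75-base stretches also occur in Vcp-rs. Epg5, a tether between autophagosomes and lysosomes, was at 4.19 and 4.77 FPKM.

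The E-box bound by both factors is CACGTG, which reads the same on both strands. It was searched in RefSeq promoters of GRCm38.p6, from 250 bases before to 50 bases after each gene start. Of the 45 members 38 had a promoter entry, and 5 of them, or 13.2%, held the motif, where 8.09% of the 27025 genes with an entry did. The 30 bases around each match are shown on the strand of the gene, with the motif in capitals, because Tfeb and Tfe3 are known to bind this motif.
Atg5 (chr10:44268313-44268342, plus strand): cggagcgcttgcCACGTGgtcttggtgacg
Atg7 (chr6:114670952-114670981, plus strand): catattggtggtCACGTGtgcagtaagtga
Nrbf2 (chr10:67285472-67285501, minus strand): gacccggctcatCACGTGacagccgccgcc
Atg14 (chr14:47568418-47568447, minus strand): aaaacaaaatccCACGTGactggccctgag
Atg3, upstream match (chr16:45158723-45158752, plus strand): gcctccttttgtCACGTGtcctgggagagt
Atg3, downstream match (chr16:45158746-45158775, plus strand): ggagagtcgagtCACGTGaggccttaggtg
The 5 genes had no shared direction. Atg5, Atg7 and Nrbf2 had log2 fold changes of 0.24, 0.13 and 0.12, and Atg14 and Atg3 of -0.14 and -0.26, none past 1.5-fold. A match describes the letters of the window only, and binding was not measured.

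Other genes of the pathway, from lists kept apart from the 45, had medians from -0.10 to 0.20. The 14 genes of fusion with lysosomes had a median log2 fold change of -0.02. Past 1.5-fold, 1 gene was higher and 0 were lower, where 7.68% and 7.5% of all genes were. That gene was Snap29, a SNARE of the autophagosome that pairs with Stx17 and Vamp8, and it was at 9.56 FPKM in WT and 16.1 FPKM in KO, a log2 fold change of 0.69. Stx17 itself was at 6.09 and 4.28 FPKM. Of 13 other genes of autophagosome formation 12 passed the filter, with a median of 0.12 and 0 past 1.5-fold. The 5 genes whose products bind and hold back Beclin 1 or its complex had a median of -0.10, with 0 past 1.5-fold.

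The 16 genes of AMPK and mTORC1 control, the branch upstream of Ulk1, had a median of -0.02. Deptor, an inhibitor within the mTOR complexes, was the only one of them past 2-fold, where 2.84% of all genes were higher and 3.43% lower. Its RNA was at 19.1 FPKM in WT and 7.04 FPKM in KO, a log2 fold change of -1.32. Prkag2, a regulatory subunit of AMPK, was higher, at 2.04 and 4.11 FPKM, a log2 fold change of 0.75. The 18 lysosomal targets of Tfeb had a median of 0.20, with 13 higher and 5 lower, where 50.7% and 49.3% of all genes were. Ctsl, the protease cathepsin L, had 143 FPKM in WT and 272 FPKM in KO, a log2 fold change of 0.92. Cln3, a lysosomal membrane protein, went the other way and had 6.86 FPKM in WT but 2.38 FPKM in KO, which is -1.22 on the log2 scale. The medians of these lists all lay inside the interquartile range of all genes. That range is the spread of single genes, and medians of lists vary less, so it does not show that a list was unchanged. The Tfeb targets summed to 2211 FPKM in WT and 2652 FPKM in KO.

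**Figure D5:**
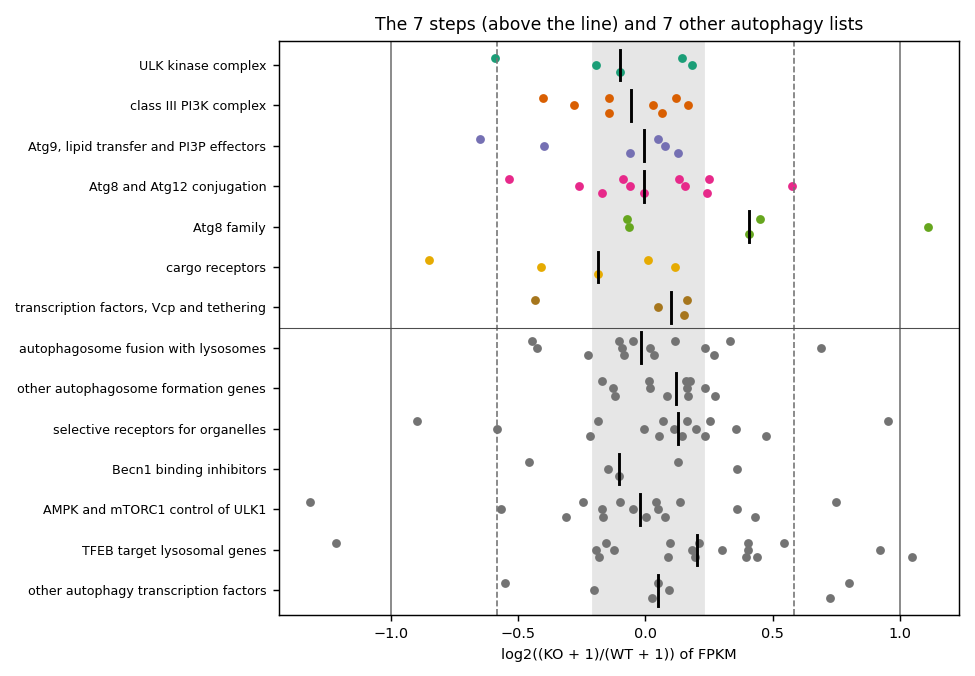
Log2 fold change of KO against WT, log2((KO + 1)/(WT + 1)) of FPKM, of each gene past the filter (points) in the 7 steps of the core machinery and in 7 other autophagy lists, with the median of each group as a black bar, the interquartile range of all genes in grey and lines at 1.5-fold and 2-fold. The medians lie between -0.19 and 0.41, and the Atg8 family is the group with its median outside the grey band.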

How the data were processed

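The authors deposited 1 value per gene symbol for each C2C12 library. The unit of the deposited values is not named, and they were taken as FPKM because the columns sum to 568543 and 574253 and the steps between low values follow transcript length. The submitters' processing notes name FastQC, Trim Galore 0.6.6, STAR 2.7.9a and RSEM 1.3.3, with GRCm38 and GRCh38 among the builds, whereas the study's methods name GRCm39. The library kit also differs between sample description and methods. There were 21853 rows, and for the 24 that repeated an earlier symbol the entry with the larger mean was used.

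Fold changes used a pseudocount of 1 and a mean of at least 1 FPKM, with 1.5-fold and 2-fold as limits. With 1 library per line no test was possible, and the FPKM values allowed no count model. Fragment numbers were estimated from the FPKM of 1 fragment (values under 0.15) and median coding transcript lengths. With 200 bases subtracted from each length the depths become 29900000 and 28200000 fragments, so intervals are approximate and cover counting error only. Shared sequence was measured in 75-base stretches against all GENCODE vM39 transcripts. Neighbours are genes past the filter within 5 Mb on GRCm39.

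The members and lists were chosen with earlier results of these data known. Values are given for every member, full fold changes for members past 1.5-fold and for Ulk1, Becn1, Map1lc3b and the highest and lowest member, and from other lists for up to 5 genes past 1.5-fold, with the exception of an item that is not reported here. Genes named or given a fold change outside this rule were chosen after their values were seen. The calculation was tested on simulated data. The tools were pandas 2.3.3, matplotlib 3.10.9, scipy 1.17.1 and numpy 2.4.6 on Python 3.11.15.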

Additional observations from a re-analysis of the deposited data

How the results depend on the processing

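The 7 alternatives were a pseudocount of 0.1 or of 5, a filter of 5 FPKM or none at all, scaling by the median of ratios, equal totals, and subtraction of the median of genes within 5 Mb. No called member changed direction under any of them. A pseudocount or filter cannot reverse a direction, and both scalings shifted values very little. Only the neighbour subtraction could have reversed a called member. With a pseudocount of 5, 0 members passed 2-fold higher (Map1lc3a, 0.96) and 1 passed 1.5-fold lower (Optn, -0.62). With 0.1, 2 passed 1.5-fold higher (Map1lc3a and Atg10) and 4 lower, Atg16l2 being added. Subtracting the neighbour median left 2 lower past 1.5-fold, and took the Atg8 median from 0.41 to 0.12 and that of the receptors from -0.19 to -0.000241. It moved 20 of 44 members by more than the half-width of their counting interval. Among the lists outside the 45, the same subtraction took the median of other autophagosome formation genes from 0.12 to 0.01. That of other autophagy transcription factors went from 0.05 to -0.10. Over all genes, a pseudocount of 5 gave 102 higher and 176 lower past 2-fold and 395 and 445 past 1.5-fold, and a mean of at least 5 gave 145 and 221, and 504 and 523. Some member counts then rose above their share among all genes. With a mean of at least 5, 1 of 39 members was higher past 2-fold (all genes, 1.69%). At that mean 3 were lower past 1.5-fold (6.10%). With no filter these counts were 1 and 3 of 45 (1.53% and 4.26%). With a pseudocount of 0.1, 4 of 44 were lower past 1.5-fold (8.80%). No paired analysis was possible because the libraries share only 1 number and no test was run. Depth limits the members with few fragments, such as Atg10, Atg4d and Atg14. Sequence shared with other genes, over 10% of 75-base stretches, leaves 7 members uncertain (Atg4a, Vcp, Wdr45, Nrbf2, Atg9a, Gabarapl2 and Map1lc3b).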

Other observations

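Selective receptors for organelles were a list outside the 45 genes. Of the 16 that passed the filter, KO had higher values for 11 and lower values for 5. Over all genes 50.7% were higher and 49.3% lower. The median log2 fold change of the 16 was 0.13, and 1 was higher and 2 lower past 1.5-fold, where 7.68% and 7.5% of all genes were. Irgm1, an interferon-induced GTPase that acts in autophagy of bacteria and mitochondria, was at 11.7 FPKM in WT and 23.6 FPKM in KO, a log2 fold change of 0.95. Stbd1, which carries glycogen to the lysosome, was at 19.2 and 9.80 FPKM, a log2 fold change of -0.90. Retreg1, a receptor for the endoplasmic reticulum, was at 64.5 and 42.7 FPKM and sat at the 1.5-fold limit with -0.59. Bcl2l13, Bnip3l, Fundc1 and Bnip3, receptors on the mitochondrial surface, did not pass 1.5-fold. Bcl2l13 was at 30.9 and 43.4 FPKM, Bnip3l at 46.5 and 39.8 FPKM, Fundc1 at 25.4 and 26.8 FPKM, and Bnip3 at 21.1 FPKM in both libraries.

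Of 8 other transcription factors of autophagy 7 passed the filter, with a median of 0.05, and 2 were past 1.5-fold, both higher in KO, against 7.68% of all genes higher past that limit. Foxo1, which drives autophagy genes in muscle during atrophy, was at 3.07 FPKM in WT and 6.10 FPKM in KO, a log2 fold change of 0.80, among genes on chromosome 3 with a median of 0.30. Mitf, a relative of Tfeb and Tfe3, was at 1.71 and 3.47 FPKM, a log2 fold change of 0.72, and the fourth gene of that family, Tfec, was listed at 0 in both libraries. Foxo3 was at 11.4 and 12.3 FPKM. Of the 7 genes 5 were higher and 2 lower in KO, the lower ones being Atf4 and Ddit3. Atf4, the most abundant factor of the list, was at 413 FPKM in WT and 282 FPKM in KO, a log2 fold change of -0.55. The list summed to 533 FPKM in WT and 406 FPKM in KO. With neighbour medians subtracted, the list median was -0.10, and Foxo1 was at 0.51, inside the 1.5-fold limit.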
